A study of Mus musculus with 6 samples.

Results

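The 10 genes described here belong to the Notch pathway and to the segmentation clock, the machinery that cuts paraxial mesoderm into somites. They are *Dll1*, *Dll3*, *Notch1*, *Lfng*, *Nrarp*, *Hes7*, *Hey1*, *Mesp2*, *Ripply2* and *Tbx18*, and they were taken by gene symbol from the 35565 Ensembl identifiers counted in the series, of which 35222 had a name in GENCODE vM39. All 10 had a row of counts. They were chosen with earlier results of these data known, so counts of calls among them are not those of an unselected list. The data were bulk RNA-seq of mouse gastruloids at day 5. Gastruloids are aggregates of embryonic stem cells (ESCs) that elongate and form derivatives of the germ layers. Both groups were made from the TBV2 129/SvP ESC line and both received a pulse of CHIR99021, a GSK3 inhibitor that activates WNT signalling. Control (NT), 3 libraries, carried a non-targeting construct (the sample labels call its genotype WT). KD-1, 3 libraries, was made from 1 knockdown clone for *T-UCstem1*, a long non-coding RNA whose own level is not analysed here. Since each group came from a single line, the silencing and any other difference between the lines cannot be told apart.

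In the Notch pathway a ligand on one cell, of the Delta-like or Jagged families, binds a Notch receptor on its neighbour. The receptor is then cut by proteases, and its intracellular part enters the nucleus and joins RBPJ and a Mastermind protein to activate targets such as the *Hes* and *Hey* repressors. In the presomitic mesoderm of the mouse embryo this pathway oscillates: *Hes7* represses itself and *Lfng*, and LFNG in turn modifies the Notch receptor. At the front of that tissue *Mesp2* sets the next somite boundary, *Ripply2* ends its activity, and *Tbx18* marks the anterior part of the formed somite. In bulk libraries fewer cells of a type and less RNA per cell cannot be told apart.

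Control (NT) libraries held 20982249 to 56674906 counts, KD-1 libraries 41180012 to 85561026. Libraries are named by their depth within the group (low, middle, high), and values per library are given in that order. Levels are TMM CPM, counts scaled to the size of the library, and 1 count was worth 0.0482 CPM in the shallowest library and 0.0115 in the deepest. Within each group no pair of libraries was as close as sampling noise allows, with a chi-square per degree of freedom between 4.85 and 36.5. The 3 libraries of a group are labelled as biological replicates, and p-values measure the spread between these libraries. Of 10 axial markers of gastruloids, 4 were lower in KD-1 (*Cdx1*, *Cdx2*, *Tbx6* and the somite gene *Meox1*), 1 was higher (*Nkx1-2*) and 5 were not called. These are 40% lower and 10% higher, where 18.1% and 19.7% of all tested genes were. *Hoxb9*, among those not called, had 113 CPM in Control (NT) against 133 in KD-1, *Cdx1* went from 5.56 to 0.306 CPM and *Cdx2* from 26.9 to 11.3 CPM.

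The windows that carry the core letters read by RBPJ are shown first, because RBPJ is the step between the receptor and the targets measured below. RefSeq windows of 250 bases upstream of the annotated start (GRCm38.p6) were at hand for 9 of the 10 genes, with an additional start for *Dll1*. They were searched on both strands for TGGGAA, the core of the RBPJ motif. The core was found in 3 of the 9 genes, *Lfng*, *Hes7* and *Tbx18*, and 21.6% of all 32851 windows of the same length hold it. *Nrarp*, another known Notch target, is shown beside them as a window without it. Lower case is the sequence 5′ to 3′ on the strand of the gene, and capitals mark the core, written TTCCCA where it lies on the opposite strand.
Lfng, chr5:140607091-140607340, plus strand: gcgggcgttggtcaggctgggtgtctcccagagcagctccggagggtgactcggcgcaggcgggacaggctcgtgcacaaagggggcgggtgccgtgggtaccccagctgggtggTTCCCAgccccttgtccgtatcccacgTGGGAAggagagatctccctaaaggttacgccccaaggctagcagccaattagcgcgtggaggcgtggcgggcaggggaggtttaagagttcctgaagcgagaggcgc
Hes7, chr11:69120203-69120452, plus strand: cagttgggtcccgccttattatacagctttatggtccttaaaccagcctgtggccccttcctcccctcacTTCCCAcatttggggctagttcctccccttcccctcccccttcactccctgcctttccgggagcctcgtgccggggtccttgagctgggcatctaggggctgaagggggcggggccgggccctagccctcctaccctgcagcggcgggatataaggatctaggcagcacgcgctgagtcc
Tbx18, chr9:87731261-87731510, minus strand: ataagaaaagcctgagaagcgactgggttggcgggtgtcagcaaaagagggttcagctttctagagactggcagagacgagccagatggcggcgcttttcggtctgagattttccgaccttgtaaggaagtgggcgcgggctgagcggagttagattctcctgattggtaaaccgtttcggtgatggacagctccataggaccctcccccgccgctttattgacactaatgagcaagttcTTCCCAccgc
Nrarp, chr2:25180508-25180757, plus strand: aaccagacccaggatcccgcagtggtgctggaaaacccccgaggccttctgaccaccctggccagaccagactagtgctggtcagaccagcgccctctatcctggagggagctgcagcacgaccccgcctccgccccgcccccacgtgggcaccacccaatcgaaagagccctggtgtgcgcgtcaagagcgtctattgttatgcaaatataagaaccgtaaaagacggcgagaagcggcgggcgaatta

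In these windows the cores of *Lfng* begin 135 and 108 bases before the start, that of *Hes7* 180 bases before it and that of *Tbx18* 10 bases before it. The core of *Lfng* at 108 bases shares letters with an E-box (CANNTG) that begins at 112. CACGCG, a motif bound by HES and HEY repressors, was present in *Dll1* (in 1 of its windows), *Lfng*, *Hes7* and *Ripply2*, that is 4 of 9 genes against 7.62% of all windows. The HES N-box CACNAG was present in *Notch1*, *Lfng*, *Hes7* and *Nrarp*, against 36.7% of all windows, and the E-box in 8 of the 9 genes, against 66.2%. The T-box core TCACAC was present in *Dll3* and *Ripply2*, against 12.3% of all windows. The second T-box core AGGTGT and the TCF core CTTTGA were in none of these windows, against 11.8% and 13.8% of all windows. Counts of genes include the additional window of *Dll1*, while the shares are per window, and windows were not matched for base composition. A match of letters is a description and not a bound site, and the data hold no binding measurement.

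Of the 10 genes, 9 passed the filter on low counts and were tested with edgeR's quasi-likelihood test, with Benjamini-Hochberg adjustment over the 15110 genes that entered. Calls needed an adjusted p under 0.05 together with a fold change over 1.5 or under 0.667. *Notch1*, *Dll3*, *Hes7*, *Hey1*, *Mesp2* and *Tbx18* were lower in KD-1, 6 of 9, where 18.1% of all tested genes were called lower. *Nrarp* was higher, where 19.7% of all tested genes were called higher, and *Dll1* and *Lfng* were not called. *Hes7* and *Tbx18* reached the filter's cutoff of 0.239 CPM in 3 Control (NT) libraries and 0 KD-1 libraries, so that their passing the filter already required a Control (NT) level above KD-1. *Mesp2* reached it in 3 and 2, so that it needed a Control (NT) library at the cutoff to pass. Every KD-1 library was below every Control (NT) library for the 6 genes called lower, a separation that 35.3% of all tested genes, called or not, showed. For genes picked by their call this separation is largely implied, and it is no separate result. The median log2 fold change was -0.76 over the 9 genes and -0.01 over all genes tested.

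**Figure D1:**
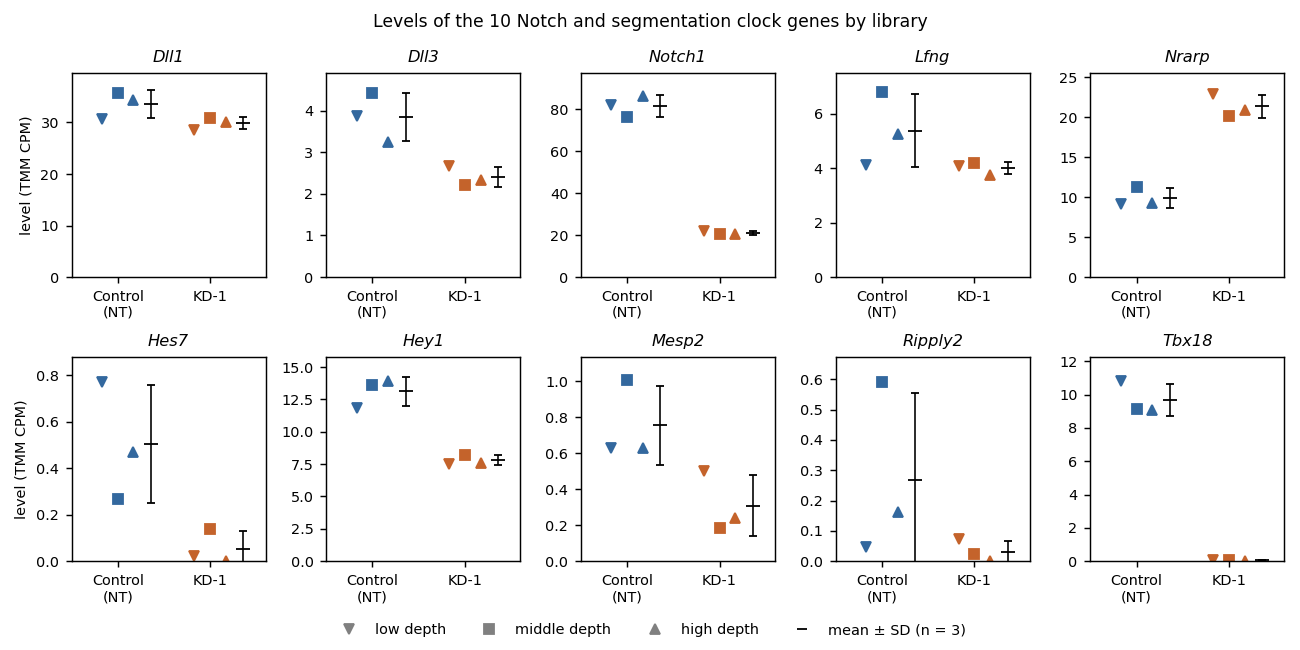
Levels of the 10 genes in TMM CPM (vertical axes, linear, from 0) in each library of Control (NT) (blue) and KD-1 (orange). Marker shapes give the depth of the library and bars the mean ± SD of 3 libraries, cut at 0 where the SD exceeds the mean. *Notch1* and *Tbx18* separate the groups with wide gaps, *Nrarp* separates them the other way, and *Dll1*, *Lfng* and *Ripply2* overlap.

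Among the ligands, *Dll1* (ENSMUSG00000014773, GRCm39 chromosome 17, 15587276 to 15597134, minus strand) encodes the main activating ligand of the presomitic mesoderm. Its level was 30.6, 35.8 and 34.3 CPM in Control (NT) against 28.5, 30.9 and 30.2 CPM in KD-1. The groups overlapped by 1 library of each, and the means were 33.6 ± 2.67 and 29.9 ± 1.19 CPM (SD, n = 3). The log2 fold change was -0.17 (SE 0.08, 95% interval -0.35 to 0.00) with an adjusted p of 0.081 by edgeR's quasi-likelihood test. That interval does not reach a 1.5-fold change in either direction, and none of 16 alternative settings called the gene. *Dll1* overlaps *Fam120b* on the opposite strand, and whether the counting used strand is not given in the sources used here. *Fam120b* had 35.8 ± 2.24 CPM in Control (NT) against 33.7 ± 1.13 in KD-1.

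*Dll3* (ENSMUSG00000003436, GRCm39 chromosome 7, 27992978 to 28001673, minus strand) encodes a divergent ligand that acts inside the cell that makes it and is needed for regular somites. It was read at 3.86, 4.41 and 3.25 CPM in Control (NT) against 2.67, 2.21 and 2.33 CPM in KD-1, so that the 2 ranges did not overlap. It fell by 0.67 on the log2 scale (SE 0.17, 95% interval -1.07 to -0.27, adjusted p = 0.0088 by edgeR's quasi-likelihood test), from 3.84 ± 0.581 to 2.40 ± 0.242 CPM. When the Control (NT) library of middle depth was left out, the log2 fold change was -0.55, less than 1.5-fold, and the call was lost. Within a library, the log2 ratio of *Dll1* to *Dll3* was 3.13 ± 0.228 in Control (NT) against 3.63 ± 0.200 in KD-1 (exact two-sided permutation test, p = 0.1, the smallest that 3 against 3 libraries allow).

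The other ligands did not follow *Dll3*. *Jag1*, a Jagged ligand used in many tissues, rose from 15.4 ± 1.77 to 31.7 ± 0.438 CPM, with a log2 fold change of 1.04 (SE 0.09, adjusted p = 2.0e-05 by edgeR's quasi-likelihood test). *Jag2* rose by 0.69 on the log2 scale (adjusted p = 0.019 by edgeR), a call that was lost without the low or the high Control (NT) library or the low KD-1 library (log2 fold change 0.51, 0.65 and 0.65). *Dll4*, the ligand known from sprouting vessels, had 0.387 ± 0.331 CPM in Control (NT) against 0.876 ± 0.200 in KD-1, overlapped between the groups and was not called (adjusted p = 0.081). Its Control (NT) library of middle depth stood above the other 2, and without it the log2 fold change was 2.16 with an adjusted p of 5.4e-04 by edgeR. Of the 5 ligands, 1 was therefore lower, 2 were higher and 2 were not called. These are 20% lower and 40% higher, where 18.1% and 19.7% of all tested genes were.

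*Notch1* (ENSMUSG00000026923, GRCm39 chromosome 2, 26347915 to 26406675, minus strand) encodes the receptor that carries the clock in the presomitic mesoderm. The level was 81.9, 76.1 and 86.3 CPM in Control (NT) against 22.0, 20.7 and 20.5 CPM in KD-1. The lowest Control (NT) library stood above the highest KD-1 library by more than the whole range of either group. The means were 81.4 ± 5.12 and 21.0 ± 0.801 CPM, 3.87-fold lower in KD-1, with a log2 fold change of -1.95 (SE 0.07, 95% interval -2.12 to -1.79, adjusted p = 1.4e-07 by edgeR's quasi-likelihood test). All 16 alternative settings called it lower, with log2 fold changes between -2.01 and -1.90.

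The receptors differed in how far they fell. *Notch2* fell from 78.6 ± 14.2 to 48.8 ± 1.5 CPM, with a log2 fold change of -0.68 (SE 0.12, adjusted p = 0.0011 by edgeR), and *Notch4*, a receptor of endothelium, from 3.64 ± 0.160 to 1.62 ± 0.244 CPM. *Notch3* had 56.1 ± 2.42 and 50.7 ± 2.41 CPM and was not called (log2 fold change -0.15, adjusted p = 0.077). Within a library, the log2 ratio of *Notch1* to *Notch3* went from 0.54 ± 0.081 in Control (NT) to -1.27 ± 0.045 in KD-1. That of *Notch1* to *Notch2* went from 0.07 ± 0.201 to -1.22 ± 0.036. For both ratios the groups did not overlap, with the smallest exact permutation p of 0.1 and 0.12 after Benjamini-Hochberg adjustment over 11 pairs.

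*Lfng* (ENSMUSG00000029570, GRCm39 chromosome 5, 140593075 to 140601300, plus strand) encodes the Fringe glycosyltransferase of the clock, which adds a sugar to Notch receptors and changes their response to ligands. It had 85, 229 and 291 counts in Control (NT), or 4.10, 6.78 and 5.25 CPM, and 4.08, 4.18 and 3.77 CPM in KD-1. The Control (NT) libraries were widely spread, the KD-1 libraries lay close together, and the shallowest Control (NT) library lay inside the KD-1 range. The log2 fold change was -0.44 (SE 0.18, 95% interval -0.86 to -0.02, adjusted p = 0.064 by edgeR's quasi-likelihood test), the gene was not called, and none of the 16 alternative settings called it. The interval includes a 1.5-fold fall as well as values near no change.

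The other Fringe genes moved in opposite directions. *Mfng* rose from 1.24 ± 0.352 to 3.67 ± 0.279 CPM (log2 fold change 1.52, SE 0.22, adjusted p = 3.8e-04 by edgeR), and *Rfng* fell from 12.0 ± 2.45 to 6.36 ± 0.283 CPM (log2 fold change -0.92, SE 0.15, adjusted p = 6.2e-04 by edgeR). The log2 ratio of *Lfng* to *Mfng* was 2.11 ± 0.591 in Control (NT) against 0.13 ± 0.042 in KD-1. That of *Lfng* to *Rfng* was -1.17 ± 0.110 and -0.66 ± 0.049. Both ratios separated the groups, each with the smallest exact permutation p of 0.1.

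*Nrarp* (ENSMUSG00000078202, GRCm39 chromosome 2, 25070770 to 25073351, plus strand) is a Notch target whose small ankyrin-repeat protein binds the Notch and RBPJ complex and dampens it. It was the only one of the 9 tested genes that was called higher in KD-1. Its level was 9.12, 11.3 and 9.28 CPM in Control (NT) against 22.9, 20.2 and 20.9 CPM in KD-1, with every KD-1 library above every Control (NT) library. The means of 9.90 ± 1.22 and 21.3 ± 1.39 CPM gave a log2 fold change of 1.1 (SE 0.11, 95% interval 0.87 to 1.34, adjusted p = 3.1e-05 by edgeR's quasi-likelihood test). All 16 alternative settings called it higher, between 1.05 and 1.21.

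*Hes7* (ENSMUSG00000023781, GRCm39 chromosome 11, 69011230 to 69014881, plus strand), the repressor at the core of the clock, was scarce in every library. It had 16, 9 and 26 counts in Control (NT), or 0.772, 0.266 and 0.469 CPM, and 1, 6 and 0 counts in KD-1, or 0.0239, 0.138 and 0 CPM. The 0 counts of the deepest KD-1 library allow up to 0.0345 CPM, taking 3 counts as the limit. Pooled over libraries, 51 counts stood against 7, a KD-1 to Control (NT) ratio of 0.0876 with an exact binomial 95% interval of 0.0335 to 0.194 that covers counting error only. The log2 fold change was -3.39 (SE 0.94, 95% interval -5.53 to -1.24, adjusted p = 0.012 by edgeR's quasi-likelihood test). The call was lost without the KD-1 library of low depth (log2 fold change -3.10, adjusted p = 0.060), and the estimate was -5.50 without the KD-1 library of middle depth and -2.52 without the deepest.

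Of the other HES genes, *Hes1*, *Hes3*, *Hes5* and *Hes6* had more counts than *Hes7* when pooled over the libraries of a group. *Hes1*, which also oscillates in the presomitic mesoderm, had 30.3 ± 4.75 CPM in Control (NT) against 29.7 ± 2.87 in KD-1, with a log2 fold change of -0.03 (95% interval -0.30 to 0.24, adjusted p = 0.85 by edgeR). That interval does not reach a 1.5-fold change, and the sign of the estimate turned in 5 of 16 alternative settings. *Hes5*, the effector of Notch in neural progenitors, had 0.338, 2.49 and 0.993 CPM in Control (NT) against 8.47, 8.44 and 8.43 CPM in KD-1. It rose by 2.67 on the log2 scale (SE 0.43, adjusted p = 6.3e-04 by edgeR), or by 3.41 when the Control (NT) library of middle depth was left out. *Hes6*, with 15.5 ± 4.28 and 23.2 ± 1.25 CPM, passed the adjusted p (0.014) and missed the 1.5-fold threshold with a log2 fold change of 0.58. It was called higher in 10 of 16 alternative settings, with DESeq2 (0.61) and without the middle Control (NT) library (0.81) among them. *Hes3* was not called (adjusted p = 0.089). The difference between the groups (KD-1 minus Control (NT)) was -3.61 in the log2 ratio of *Hes7* to *Hes1* and -6.78 in that of *Hes7* to *Hes5*, each with no overlap and the smallest exact permutation p of 0.1. The first was -4.67 without the middle KD-1 library and -2.68 without the deepest. The second was -7.85 without the middle Control (NT) library and -5.68 without the low one, the ends of its range.

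Most neural markers of the list were higher in KD-1, as were *Hes5* and *Nrarp*. Of 12 neural genes taken as markers, 10 were higher in KD-1, 0 were lower and 2 were not called, with a median log2 fold change of 3.08. Their summed level ranged from 162.5 to 168.7 CPM in Control (NT) against 395 to 411 CPM in KD-1, and *Sox1* went from 12.5 to 44.0 CPM. Of 8 pluripotency markers 7 were higher in KD-1, with summed levels of 790 to 866 CPM against 2524 to 2620 CPM. The part of these cells in the levels of the 10 genes was not tested.

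*Hey1* (ENSMUSG00000040289, GRCm39 chromosome 3, 8726956 to 8732385, minus strand) encodes a repressor of the Hairy family that Notch activates in somites, heart and vessels. Its level was 11.8, 13.6 and 13.9 CPM in Control (NT) against 7.54, 8.23 and 7.59 CPM in KD-1, with a clear gap between the groups. It fell by 0.76 on the log2 scale (SE 0.10, 95% interval -0.99 to -0.53, adjusted p = 2.2e-04 by edgeR's quasi-likelihood test), from 13.1 ± 1.14 to 7.79 ± 0.386 CPM. Leaving out any library kept the call, with values between -0.83 and -0.71.

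*Heyl*, a family member expressed in somites, fell further than *Hey1*. It went from 4.25 ± 0.782 to 0.466 ± 0.105 CPM, with a log2 fold change of -3.23 (SE 0.25, adjusted p = 1.1e-05 by edgeR), and the log2 ratio of *Hey1* to *Heyl* rose from 1.64 ± 0.278 to 4.05 ± 0.317 without overlap (exact permutation p = 0.1). *Hey2* had 2.75, 1.72 and 2.04 CPM in Control (NT) against 2.15, 1.31 and 1.45 CPM in KD-1 and was not called (log2 fold change -0.39, adjusted p = 0.22). Between the groups, the log2 ratio of *Hey1* to *Hey2* overlapped (exact permutation p = 0.4). Endothelial markers were mixed: 1 of 4 tested was lower (*Kdr*) and 2 were higher (*Pecam1* and *Tek*). These are 25% and 50%, where 18.1% and 19.7% of all tested genes were. The summed level of 8 genes was 25.5 to 26.9 CPM in Control (NT) against 38.7 to 41.4 in KD-1. That rise came mostly from *Pecam1* (14.5 and 29.4 CPM). *Emcn*, not tested, had 23 pooled counts in Control (NT) against 0 in KD-1. The defining gene *Cdh5*, also not tested, had at most 21 counts in Control (NT) against at most 2 in KD-1.

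**Figure D2:**
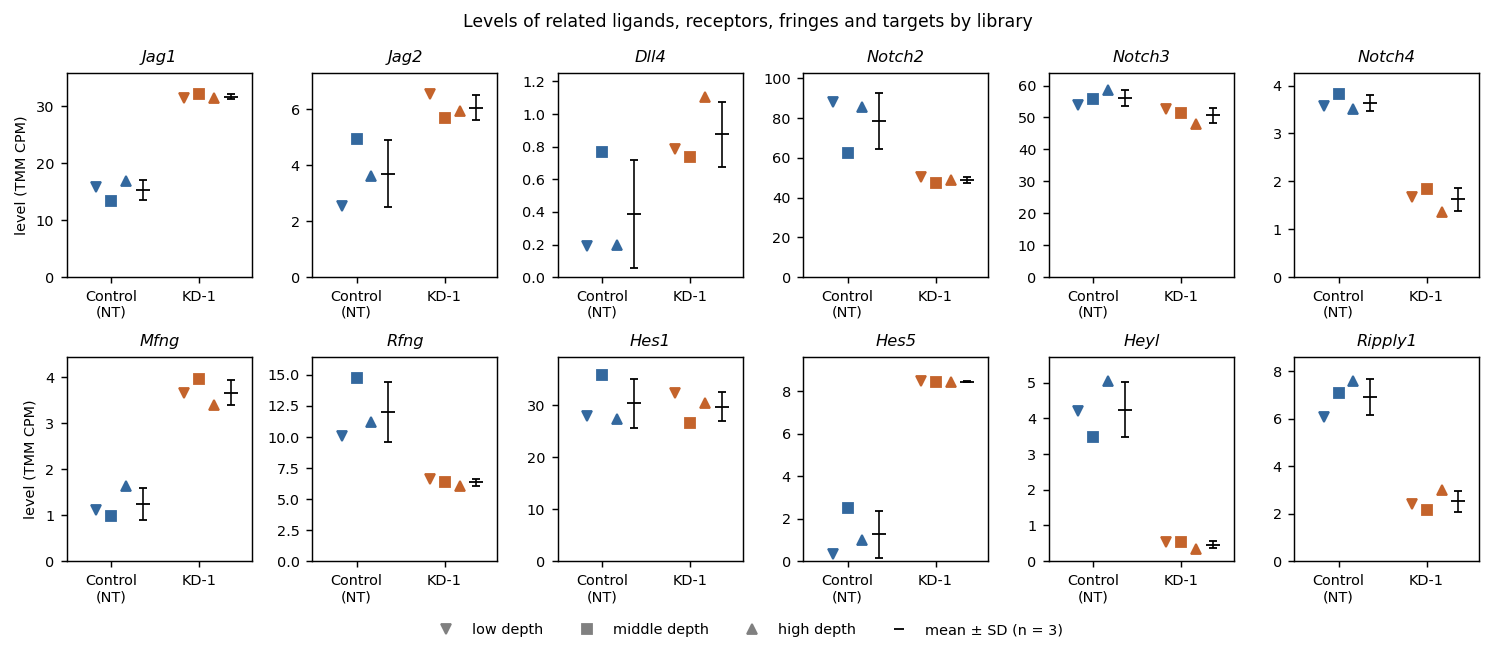
Levels in TMM CPM (vertical axes, linear, from 0) of 12 related genes in each library of Control (NT) (blue) and KD-1 (orange), with marker shapes for depth and bars for the mean ± SD of 3 libraries. *Jag1*, *Jag2*, *Mfng* and *Hes5* were higher in KD-1, *Notch2*, *Notch4*, *Rfng*, *Heyl* and *Ripply1* lower, and *Hes1* and *Dll4* overlapped.

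*Mesp2* (ENSMUSG00000030543, GRCm39 chromosome 7, 79460475 to 79463187, plus strand) encodes the basic helix-loop-helix factor that places the segment boundary. It had 13, 34 and 35 counts in Control (NT), or 0.627, 1.01 and 0.632 CPM, and 21, 8 and 21 counts in KD-1, or 0.501, 0.184 and 0.242 CPM. The KD-1 library of low depth came close to the lower Control (NT) libraries without reaching them. The pooled ratio of KD-1 to Control (NT) was 0.389 (exact binomial 95% interval 0.268 to 0.560) and the log2 fold change -1.32 (SE 0.46, 95% interval -2.37 to -0.26, adjusted p = 0.033 by edgeR's quasi-likelihood test). Among the 7 genes called, this call was lost in the most settings that left out a library. It did not hold when the Control (NT) library of middle depth was left out (adjusted p = 0.059) or high depth (0.052) and without the KD-1 library of middle (0.13) or high depth (0.14), at log2 fold changes between -1.46 and -1.05. *Mesp1*, its neighbour and paralog, had 0, 2 and 1 counts in Control (NT) against 0 in every KD-1 library, too few for a comparison.

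*Ripply2* (ENSMUSG00000047897, GRCm39 chromosome 9, 86897590 to 86902492, plus strand), which encodes the repressor that ends MESP2 activity, did not pass the filter and was not tested. It had 1, 20 and 9 counts in Control (NT) against 3, 1 and 0 in KD-1, that is 0.0482, 0.592 and 0.162 CPM against 0.0716, 0.0230 and 0 CPM. Of the 30 Control (NT) counts 20 came from 1 library, and the groups overlapped. The pooled ratio was 0.0851 (exact binomial 95% interval 0.0218 to 0.241), which covers counting error and not the spread between libraries. Without the filter edgeR called it lower (log2 fold change -3.23, adjusted p = 0.040), and so did DESeq2 (-3.21, adjusted p = 0.041).

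*Ripply1*, which shares that role, was read with more counts. It fell from 6.91 ± 0.765 to 2.53 ± 0.440 CPM, with a log2 fold change of -1.44 (SE 0.17, adjusted p = 9.9e-05 by edgeR), and no KD-1 library reached the Control (NT) range. The log2 ratio of *Ripply2* to *Ripply1* overlapped between the groups (exact permutation p = 0.5).

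*Tbx18* (ENSMUSG00000032419, GRCm39 chromosome 9, 87584851 to 87613338, minus strand), the T-box factor of the anterior part of the somite, showed the widest difference of the 10 genes. It had 224, 308 and 504 counts in Control (NT), or 10.8, 9.12 and 9.10 CPM, and 4, 3 and 3 counts in KD-1, or 0.0954, 0.0690 and 0.0345 CPM. In KD-1 the gene was at or next to the limit of 3 counts in every library. The pooled ratio was 0.00616 (exact binomial 95% interval 0.00294 to 0.0114), and the log2 fold change was -7.29 (SE 0.26, 95% interval -7.89 to -6.70, adjusted p = 1.2e-07 by edgeR's quasi-likelihood test). At these counts the interval of the log2 fold change is approximate. On the log2 scale it is narrower than the binomial interval, which covers counting error alone. It ranked 80 among the 15110 tested genes by the size of the log2 fold change. Leaving out any library kept the call, with values between -7.60 and -6.81.

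*Tbx15*, the closest relative of *Tbx18*, fell from 5.25 ± 1.45 to 1.47 ± 0.548 CPM, with a log2 fold change of -1.84 (SE 0.30, adjusted p = 7.3e-04 by edgeR). The log2 ratio of *Tbx18* to *Tbx15* fell from 0.91 ± 0.468 to -4.27 ± 0.827 without overlap (exact permutation p = 0.1). *Tbx18* is also known from epicardium and mesenchyme. Of 3 tested epicardial markers 2 were lower in KD-1, and *Tbx20* was not called (0.34 CPM in Control (NT), 0.73 in KD-1). Of 4 tested fibroblast markers 3 were lower, and *Thy1* was not called (0.13 and 0.45 CPM). Of the lower fibroblast genes, *Col1a2* and *Col3a1* passed the filter only through Control (NT). Over all tested genes 18.1% were lower. The summed level of 5 epicardial genes was 42.5 to 49.3 CPM in Control (NT) against 2.31 to 3.58 in KD-1, nearly all of it from *Aldh1a2*, which somites also express (41.4 and 1.58 CPM). The defining epicardial genes *Tcf21* and *Upk3b* were at 0 in all libraries and at 0 to 4 counts. The summed level of 8 fibroblast genes was 8.34 to 9.17 CPM in Control (NT) against 0.818 to 1.03 in KD-1, and its part in the level of *Tbx18* was not tested.

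**Figure D3:**
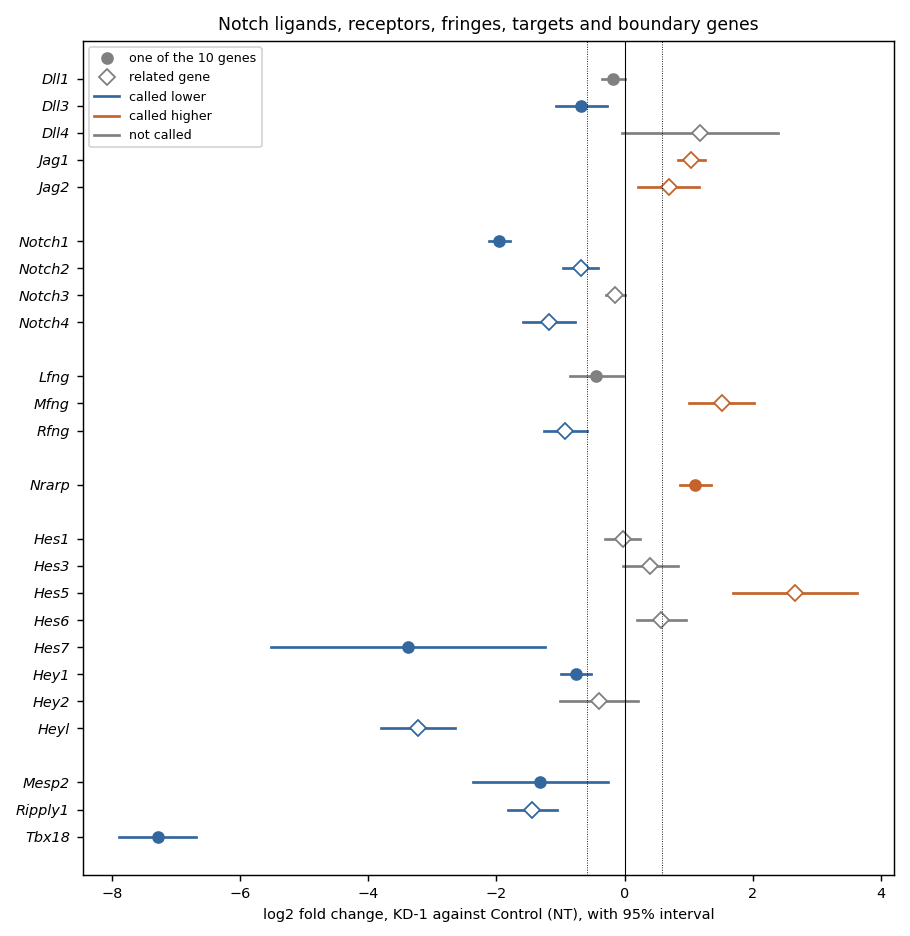
Log2 fold change of KD-1 against Control (NT) (horizontal axis) with its 95% interval from edgeR for the tested genes of the 10 (filled circles) and for related genes (open diamonds), grouped as ligands, receptors, Fringe genes, *Nrarp*, HES and HEY genes and boundary genes. Dotted lines mark a 1.5-fold change; *Tbx18* lies farthest to the left at -7.29, *Hes7* has the widest interval, and *Nrarp* (1.1) is the only one of the 10 genes to the right of the threshold.

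The order of the 10 genes changed between the groups when levels were set per length, as CPM per kb of the union of exons. That union can be longer than the transcripts that were quantified. The places of the genes depend on it, and no other length was tried. In Control (NT) *Dll1* came first with 6.77 CPM per kb, followed by *Notch1* (5.72), *Nrarp* (3.83), *Hey1* (2.73), *Lfng* (2.13), *Tbx18* (2.04), *Dll3* (1.26), *Mesp2* (0.388), *Hes7* (0.278) and *Ripply2* (0.213). The ranges over libraries overlapped between *Hey1* and *Lfng*, between *Lfng* and *Tbx18*, and among *Mesp2*, *Hes7* and *Ripply2*. All other neighbours were apart in every library. In KD-1 *Nrarp* came first with 8.26 CPM per kb and *Dll1* next with 6.02. *Hey1* (1.62), *Lfng* (1.59) and *Notch1* (1.48) followed, each overlapping its neighbour, then *Dll3* (0.788) and *Mesp2* (0.159). *Hes7* (0.0298), *Ripply2* (0.0251) and *Tbx18* (0.0140) came last and overlapped. *Notch1* thus moved from the second place to the fifth and *Tbx18* from the sixth to the last.

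The spread between libraries was unequal among the 10 genes. In Control (NT) the coefficient of variation was 6.29% for *Notch1*, 7.95% for *Dll1* and 8.67% for *Hey1*, but 25.0% for *Lfng*, 28.8% for *Mesp2*, 50.6% for *Hes7* and 107% for *Ripply2*. The last 3 rest on few counts, while *Lfng* had at least 85 counts in each library. In KD-1 *Lfng* varied by 5.43% and *Notch1* by 3.81%. The Control (NT) library of middle depth was the highest of its group for 6 of the 10 genes (*Dll1*, *Dll3*, *Lfng*, *Nrarp*, *Mesp2* and *Ripply2*), where it was highest for 39.95% of all tested genes. It was the lowest of its group for *Notch1* and *Hes7*, with *Hes7* 0.76 below and *Lfng* 0.36 above their means of log2 levels.

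**Figure D4:**
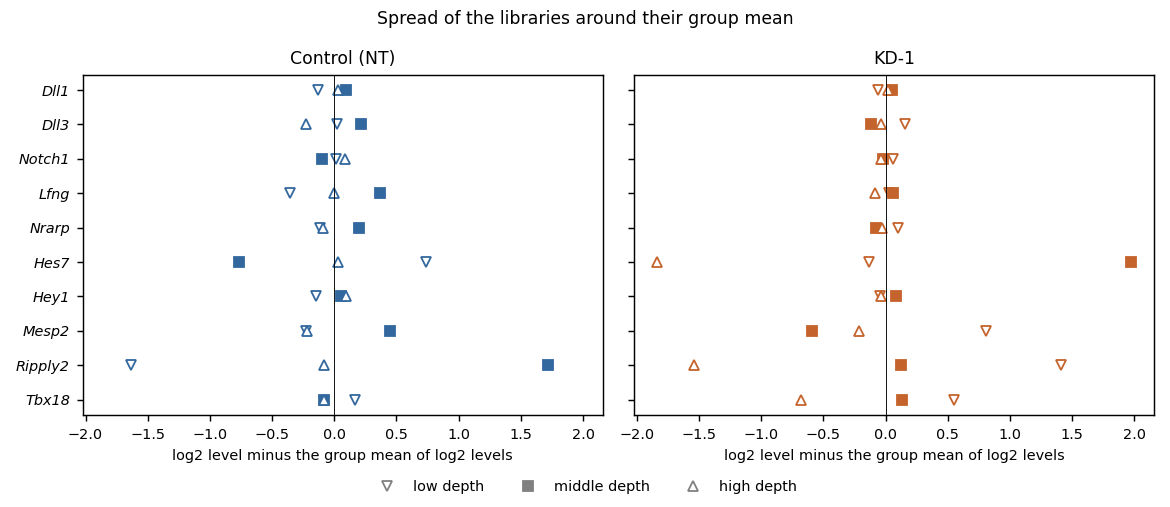
Deviation of each library from the mean of the log2 levels of its group (horizontal axis, log2) for the 10 genes, Control (NT) on the left and KD-1 on the right, with marker shapes for library depth. In Control (NT) the library of middle depth (filled squares) is high for *Ripply2* (1.72), *Mesp2* (0.45) and *Lfng* (0.36) and low for *Hes7* (-0.76), and in KD-1 the widest deviations belong to genes with few counts.

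The 5 tested genes whose profile over the 6 libraries lay closest to that of *Hes7*, by Euclidean distance of centred log2 levels, were *Wdr72* (1.53), *Il31ra* (1.80), *Cdhr4* (1.86), *Hs3st3a1* (1.92) and *Itih5* (2.01). All 5 were called lower in KD-1. This follows from the choice and is no separate result, since the profile of *Hes7* holds its difference between the groups. *Wdr72*, *Il31ra* and *Cdhr4* had at most 7, 5 and 5 counts in any KD-1 library. The distances are a description over 6 libraries.

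The rest of the Notch pathway was read from lists of 62 genes in all, 55 of them outside the 10 genes. Of these 55, 53 were tested, 13 were lower, 10 were higher and 30 were not called, with a median log2 fold change of -0.12. These shares, 24.5% lower and 18.9% higher, lie near the 18.1% and 19.7% of all tested genes. Among 19 genes that modify, internalise or cut ligands and receptors, 3 were lower and 3 were higher, or 15.8% each. The protease gene *Furin*, whose product cleaves Notch receptors on their way to the surface, fell from 16.6 ± 1.09 to 9.40 ± 0.363 CPM (adjusted p = 6.0e-05 by edgeR), and *Neurl1b*, a ubiquitin ligase for ligands, rose from 0.497 ± 0.264 to 1.09 ± 0.168 CPM (adjusted p = 0.036 by edgeR), a call that was lost in 4 of 6 settings that left out 1 library: without the high Control (NT) library or the low, middle or high KD-1 library (adjusted p = 0.065, 0.068, 0.12 and 0.10).

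Among 12 nuclear factors of the pathway 2 were higher and 3 were lower. These shares, 16.7% and 25%, lie near the 19.7% and 18.1% of all tested genes. *Rbpj*, the DNA-binding partner of the Notch intracellular domain, rose from 137 ± 15.4 to 222 ± 2.59 CPM (log2 fold change 0.70, SE 0.08, adjusted p = 9.9e-05 by edgeR), and the acetyltransferase gene *Kat2b* rose by 1.02 on the log2 scale. The Mastermind coactivators *Maml2* (18.3 ± 4.34 to 5.06 ± 0.538 CPM, log2 fold change -1.85) and *Maml3* (38.9 ± 0.227 to 14.2 ± 0.436 CPM, log2 fold change -1.45) fell, with adjusted p of 3.6e-05 and 3.9e-07 by edgeR. The named genes of this complex thus moved in opposite directions, in a list whose shares lie near those of all tested genes.

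Of 12 tested antagonists and modulators, *Nrarp* included, 3 were higher and 4 were lower. These are 25% and 33.3%, where 19.7% and 18.1% of all tested genes were. *Dtx4*, a Deltex ubiquitin ligase, rose from 24.1 ± 1.31 to 66.6 ± 0.799 CPM (log2 fold change 1.47), and *Dtx1* of the same family fell from 5.93 ± 2.53 to 1.30 ± 0.291 CPM (log2 fold change -2.17). *Dlk1*, which encodes a Delta-like protein without the receptor-binding domain of canonical ligands, fell by 4.03 on the log2 scale, from 5.48 ± 1.75 to 0.344 ± 0.181 CPM. The adjusted p by edgeR were 4.0e-07, 3.5e-04 and 2.5e-05. Of 8 tested HES and HEY genes 3 were lower (*Hes7*, *Hey1* and *Heyl*), 1 was higher (*Hes5*) and 4 were not called. These are 37.5% lower and 12.5% higher. With *Hes6*, 2 were higher in 9 of the 16 alternative settings.

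**Figure D5:**
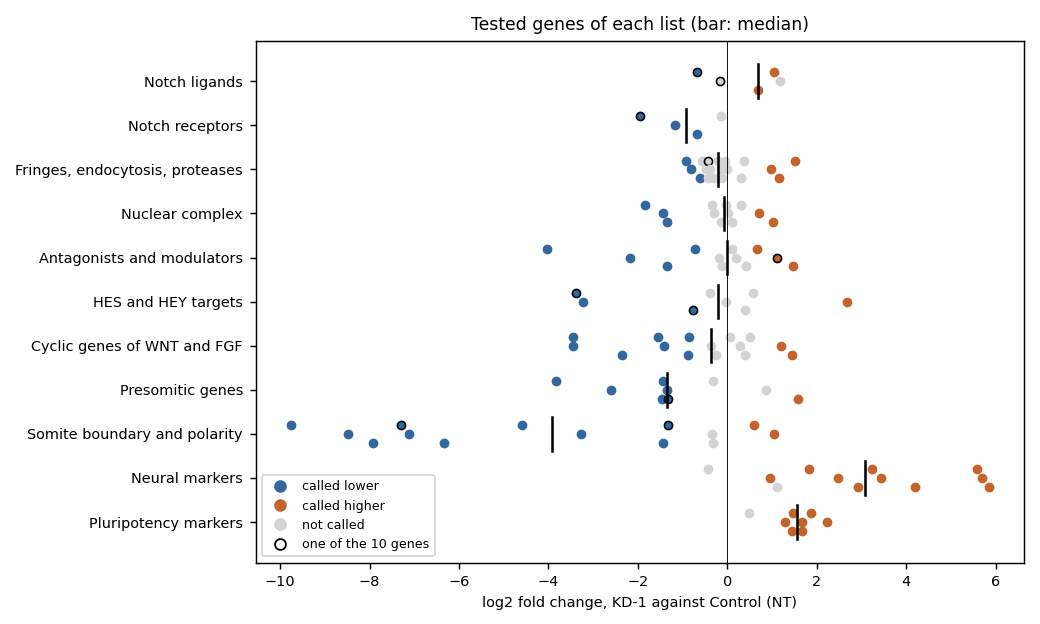
Log2 fold change of KD-1 against Control (NT) (horizontal axis) of the tested genes in each list (rows), with blue for called lower, orange for called higher, grey for not called, black rings for the 10 genes and a vertical bar for the list median. Genes of the Notch lists lie on both sides of 0, the somite boundary list has a median of -3.92, and the neural and pluripotency markers lie mostly to the right with medians of 3.08 and 1.56.

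Genes that accompany the 10 in the presomitic mesoderm moved in both directions. Of 15 genes of the WNT and FGF branches that oscillate in the embryo, 7 were lower, 2 were higher and 6 were not called (median log2 fold change -0.36). These are 46.7% lower and 13.3% higher, where 18.1% and 19.7% of all tested genes were. *Phlda1* fell by 3.46 and *Snai1* by 3.44 on the log2 scale (4.13 for *Snai1* without the low KD-1 library), and the WNT target *Sp5* and the FGF inhibitor *Spry4* rose by 1.21 and 1.44. Of 8 tested presomitic genes other than *Mesp2* and *Ripply2*, 5 were lower (62.5%) and 1 was higher (12.5%). Of the 5, *Fgf8* and *Cyp26a1* lay under the filter's cutoff in every KD-1 library and passed only through Control (NT), and with at least 10 counts required in each library 3 were lower and 2 higher of 6 tested. *Tbx6*, the factor upstream of *Mesp2*, had 0.692 ± 0.164 and 0.256 ± 0.043 CPM (log2 fold change -1.47, adjusted p = 0.0084 by edgeR), a call that was lost without the deepest KD-1 library (adjusted p = 0.064). *Cyp26a1*, which degrades retinoic acid, fell by 3.83 and *Fgf17* rose by 1.57 on the log2 scale. *Msgn1*, a gene of the posterior presomitic mesoderm, had 3 counts in 1 Control (NT) library and 0 in the other 5 libraries, at or below the limit of 3 counts throughout.

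Of 12 boundary and polarity genes other than *Mesp2*, *Ripply2* and *Tbx18*, 8 were lower, 2 were higher and 2 were not called, with a median log2 fold change of -3.92. These are 66.7% lower and 16.7% higher, where 18.1% and 19.7% of all tested genes were. Of the 8, 4 (*Uncx*, *Cer1*, *Foxc2* and *Meox2*) were under the filter's cutoff in every KD-1 library and passed only through Control (NT), so that this count and median describe the genes that passed. With at least 10 counts required in each library, 4 were lower and 2 higher of 8 tested. *Meox1*, a homeobox gene of somites, went from 371 ± 16.7 to 0.423 ± 0.031 CPM. *Foxc2* had a log2 fold change of -8.49, or -9.20 without the low KD-1 library. *Uncx*, which marks the posterior part of the somite as *Tbx18* marks the anterior one, fell from 2.35 ± 1.29 to 0.0891 ± 0.0326 CPM (log2 fold change -4.58, adjusted p = 7.9e-05 by edgeR). The marker named here for each part of the somite was therefore lower in KD-1, and both *Tbx18* and *Uncx* passed the filter only through Control (NT). *Efnb2* and *Ephb2* of the same list were not called (log2 fold changes -0.34 and -0.31). *Epha4*, an Eph receptor of boundaries that neural tissue also uses, rose from 68.0 ± 9.79 to 140 ± 1.33 CPM (log2 fold change 1.04), and *Pcdh8* rose by 0.59, a call close to the 1.5-fold threshold that was lost without the high Control (NT) library (0.53) or the low (0.58) or middle (0.56) KD-1 library.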

How the data were processed

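The authors prepared TruSeq libraries, sequenced paired-end reads on a NextSeq 500, quantified them with Salmon (version 1.1, per the submitters' processing notes) and deposited estimated counts per gene in whole numbers, without normalization. The annotation's species series and genome build, the summing of transcripts to genes and the use of strand are not given in the sources used here. Salmon shares reads between overlapping or near-identical genes by probability. Columns give the group but no replicate number that matches the labels.

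Gene names, positions and exon lengths came from GENCODE vM39 (GRCm39). edgeR (version 4.0.16, R 4.3.3) was run on all genes with filterByExpr defaults, TMM, robust glmQLFit and glmQLFTest, group as sole term and p-values adjusted by Benjamini-Hochberg, with the study's fold threshold. The common biological coefficient of variation was 10.6%. Depth was 20982249 to 85561026 counts, and exact binomial intervals and limits of 3 counts cover counting error only. SE and intervals of log2 fold changes were derived from the F statistic of the edgeR fit, which uses the spread between libraries. At few counts they are approximate and can be too narrow. Ratios of genes used TMM CPM with a prior count of 0.5 and exact permutation tests over 6 libraries. Alternatives were other scalings and filters, DESeq2 (version 1.42.0), limma-voom (version 3.58.1), other fold thresholds and 6 left-out libraries. Scripts were tested on simulated data.

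Genes named were the 10, their paralogs, at most 2 rises and 2 falls per list among called genes with a group mean of at least 1 CPM, defining markers and the 5 profiles closest to *Hes7*. *Hes3*, *Hes6*, *Dll4*, *Tbx6*, *Msgn1*, *Uncx*, *Cer1*, *Meox2*, *Fgf8*, *Tbx20*, *Thy1*, *Col1a2*, *Col3a1*, *Kdr*, *Pecam1*, *Tek*, *Emcn*, *Fam120b* and the axial markers were given beside them as neighbours in their lists or in the genome, after their values were seen. The genes and lists were chosen with earlier results of these data known. Promoter windows came from RefSeq (GRCm38.p6), whose positions are not those of GRCm39.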

Additional observations from a re-analysis of the deposited data

How the results depend on the processing

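The count of 6 lower genes among the 10 ranged from 4 to 6 when 1 library was left out (4 with the middle Control (NT) library left out) and was 3 when at least 10 counts in every library were required, a filter that left 6 of the genes tested. The count of 1 higher gene (*Nrarp*) ranged from 1 to 1. Without a filter or with DESeq2, 7 genes were lower, *Ripply2* added, and with an absolute log2 fold change over 1, 4. The log2 fold change of *Hes1* turned from -0.03 to 0.0298 with library size only, 0.0162 with the filter on 10 counts per library and 0.003 with DESeq2, and leaving out 1 library gave -0.11 to 0.11. Among 8 presomitic and 12 boundary genes outside the 10, the filter on 10 counts per library changed 5 lower to 3 and 8 lower to 4. With a prior count of 2 the log2 ratio differences were -2.64 for *Hes7* to *Hes1* and -4.66 for *Tbx18* to *Tbx15*. Over all genes 5704 were called, 3274 with an absolute log2 fold change over 1 and 9597 with no fold threshold. No paired analysis was possible because the columns carry no replicate number that matches the labels. At these depths *Hes7*, *Ripply2* and *Mesp2* rest on few counts. The cause of these changes was not tested, apart from the fewer genes tested under the stricter filter.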
